A study of Mus musculus with 18 samples.

Results

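The colonic stem cell markers Lgr5, Lgr4, Ascl2, Smoc2, Lrig1, Tnfrsf19, Rgmb, Msi1, Cd44 and Hopx were followed through RNA-Seq libraries of laser-microdissected mouse colon. These 10 genes were picked by symbol from the 55453 gene names in the count tables, and each symbol occurred once. All 10 were among the 20787 genes with enough counts to be tested. The 18 libraries came from female Swiss Webster mice given the colon carcinogen azoxymethane (AOM) at 7 weeks of age. From 9 weeks on they went through 4 cycles of dextran sulfate sodium (DSS), an agent that injures the colonic lining, with 7 days of 2% DSS and 14 days of plain water in each. At 11 weeks the basal chow with 2 mg/kg folic acid (FA) was replaced by chow with 0 or 8 mg/kg FA for 16 weeks, and the colons were taken at 27 weeks. Non-dysplastic epithelium and polypoid dysplasia were cut from formalin-fixed, paraffin-embedded tissue, which gave the groups 0ND (n = 4) and 0P (n = 4) without FA and 8ND (n = 5) and 8P (n = 5) with 8 mg/kg FA. All groups thus shared AOM, DSS and colitis, and mice without injury or on basal chow were not analysed here. The labels do not say whether the libraries of a group came from separate mice, so p-values measure only the spread between these libraries. Counts on genes per library ranged from 3500947 in 8ND 4 to 17048524 in 0P 4, with a median of 10292934, and a gene with few counts is measured with more error, as for Ascl2.

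Epithelial stem cells at the base of the colonic crypt renew the lining, and their number is kept by Wnt signaling, which R-spondins amplify through receptors of the Lgr family. Bone morphogenetic protein (BMP) signals from the upper crypt oppose them and favor differentiation. Most of the markers were defined in healthy intestine, and several of them, among them Lgr5, Ascl2, Tnfrsf19 and Cd44, are Wnt target genes that colon tumors also express. In bulk libraries such as these, fewer cells of a type and less RNA per cell cannot be told apart.

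The genes lie on 7 chromosomes of mm10 (GENCODE M21), with Lgr5 at chr10:115450311-115587780, Lgr4 at chr2:109917647-110014257, Ascl2 at chr7:142966829-142969264, Smoc2 at chr17:14279506-14404790 and Lrig1 at chr6:94604529-94700158. Tnfrsf19 lies at chr14:60963875-61046490, Rgmb at chr17:15803188-15831039, Msi1 at chr5:115429599-115455698, Cd44 at chr2:102811141-102901665 and Hopx at chr5:77086988-77115121. Lgr4, Smoc2 and Msi1 are on the plus strand and the others on the minus strand. Exons of Lrig1 overlap 144 bases of Slc25a26 and exons of Hopx overlap 412 bases of Hopxos, both on the opposite strand. The strand setting of the counting is not given in the sources used here, so reads in these overlaps cannot be assigned with certainty.

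The 250 bases before an annotated start were read for the members in the promoter table (RefSeq, GRCm38.p6), namely Lgr4, Ascl2, Lrig1, Tnfrsf19, Rgmb, Cd44 and Hopx. The 4 windows printed here show how far promoters of these markers differ in CpGs, the sites of DNA methylation, for 3 genes that rose in polypoid dysplasia and 1 that fell in one of the comparisons. Each sequence is written 5′ to 3′ on the strand of its gene, with CpG dinucleotides in capitals. They are chr7:142969265-142969514 (minus strand) for Ascl2, chr2:102901666-102901915 (minus) for Cd44, chr14:61037988-61038237 (minus) for the second annotated start of Tnfrsf19 and chr6:94700146-94700395 (minus) for Lrig1.
Ascl2: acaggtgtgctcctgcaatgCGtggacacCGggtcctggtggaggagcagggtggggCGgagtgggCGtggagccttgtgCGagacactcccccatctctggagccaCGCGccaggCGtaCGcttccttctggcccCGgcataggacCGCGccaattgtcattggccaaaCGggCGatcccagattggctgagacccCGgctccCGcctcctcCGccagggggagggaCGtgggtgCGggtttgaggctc
Cd44: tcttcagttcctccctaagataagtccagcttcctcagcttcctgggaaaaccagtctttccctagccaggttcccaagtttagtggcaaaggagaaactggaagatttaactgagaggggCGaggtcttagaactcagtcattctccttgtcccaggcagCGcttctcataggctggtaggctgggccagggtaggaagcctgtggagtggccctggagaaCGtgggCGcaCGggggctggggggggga
Tnfrsf19: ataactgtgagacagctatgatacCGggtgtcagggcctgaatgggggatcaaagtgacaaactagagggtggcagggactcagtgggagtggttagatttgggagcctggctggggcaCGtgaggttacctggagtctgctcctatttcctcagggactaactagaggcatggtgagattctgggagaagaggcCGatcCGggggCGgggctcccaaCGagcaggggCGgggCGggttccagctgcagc
Lrig1: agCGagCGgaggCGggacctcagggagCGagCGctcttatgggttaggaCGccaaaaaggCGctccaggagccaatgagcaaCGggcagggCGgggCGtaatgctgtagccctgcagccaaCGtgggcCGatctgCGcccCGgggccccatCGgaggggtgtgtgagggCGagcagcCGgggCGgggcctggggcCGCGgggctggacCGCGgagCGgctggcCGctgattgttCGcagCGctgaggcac

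The window of Ascl2 held 19 CpGs, that of Cd44 5, that of Tnfrsf19 8 and that of Lrig1 26, against a median of 6 over 32851 windows of this length. The Lgr4 window held 10, those of Hopx 8 and 18, that of the first Tnfrsf19 start 9, and those of Rgmb 9, 27 and 18. TCF/LEF motifs, the letters bound by the transcription factors of the Wnt pathway, were searched as CTTTGAA, as CTTTGAT, as CTTTGTA and as CTTTGTT on both strands. Of all windows 14.8% held one, and among the members' windows it was the second Tnfrsf19 window that did, as ATCAAAG 202 bases before the start. That RefSeq start lies 37 bases upstream of the nearest GENCODE start of Tnfrsf19, while the printed windows of Ascl2, Cd44 and Lrig1 end at a start that both annotations share. E-boxes, the letters that bHLH factors bind, with forms that differ between factors, were searched as CAGCTG and CACGTG. The second Tnfrsf19 window held one of each and the second Hopx window a CACGTG, against 13% and 6.02% of all windows. A match in letters is not evidence of binding, and methylation of these windows was not analysed here.

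The markers did not move as one group in polypoid dysplasia. Lgr5, Ascl2, Smoc2, Tnfrsf19, Msi1, Cd44 and Hopx were higher in P than in ND libraries on both diets, Rgmb was lower on both, and Lgr4 and Lrig1 were lower without FA. On 8 mg/kg FA, Lgr4 and Lrig1 differed in the same direction without passing an adjusted p of 0.05 in the edgeR fit of all libraries. In 0P vs 0ND all 10 markers passed an adjusted p of 0.05 in edgeR's quasi-likelihood test, 7 higher and 3 lower, where 31.6% of all tested genes passed, 15.9% higher and 15.7% lower. In 8P vs 8ND 8 passed, 7 higher and 1 lower, against 28.2% of all genes, 13.9% higher and 14.3% lower. The libraries of the groups did not overlap for 8 of the 10 in 0P vs 0ND, as for 32.3% of all genes, and for 9 of the 10 in 8P vs 8ND, as for 17.2% of all genes. The median log2 difference of the 10 was 1.60 in 0P vs 0ND and 1.31 in 8P vs 8ND, beside -0.03 and 0.00 over all tested genes.

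**Figure D1:**
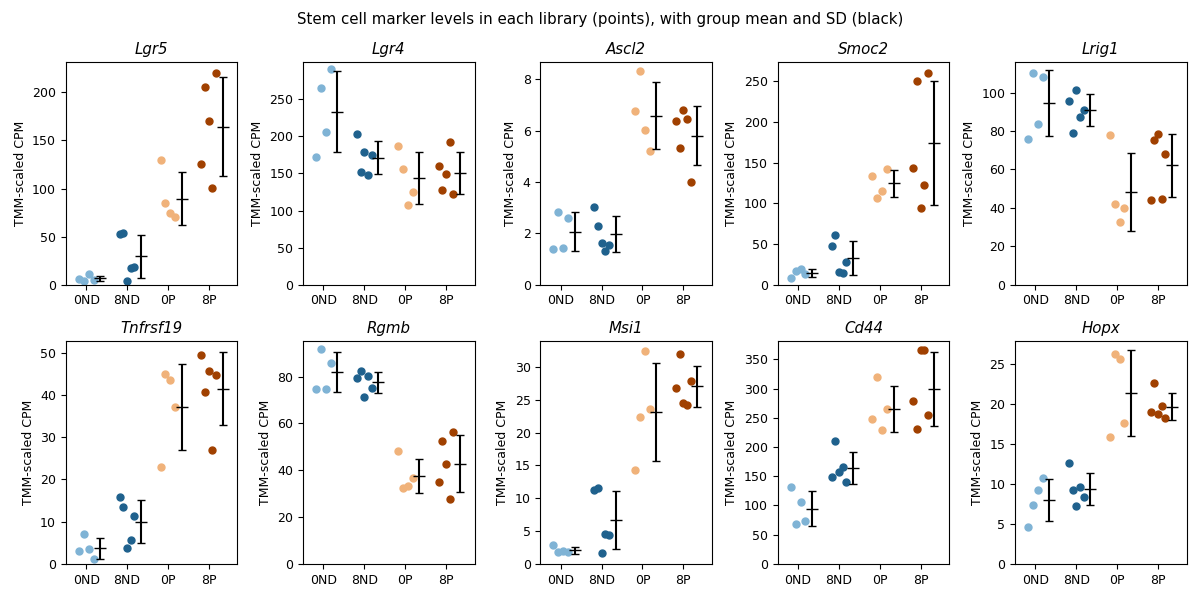
Level of each marker in TMM-scaled CPM (read counts relative to library size) in every library of the 4 groups, 1 panel per gene with its axis from 0, with the group mean and SD in black. The P libraries lie above all ND libraries for Lgr5, Ascl2, Smoc2, Tnfrsf19, Msi1, Cd44 and Hopx and below them for Rgmb, and 8ND 1 and 8ND 2 stand above the other ND libraries for Lgr5, Smoc2, Tnfrsf19 and Msi1.

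Lgr5 and Lgr4 encode the R-spondin receptors of the crypt, Lgr5 in the stem cells of its base and Lgr4 more widely along the crypt. Lgr5 was at 6.05, 4.41, 10.9 and 4.98 CPM in the 4 libraries of 0ND and at 129.5, 84.6, 74.2 and 70.2 CPM in those of 0P. It was at 52.7, 54.1, 4.40, 17.9 and 18.9 CPM in 8ND and at 126, 206, 169.8, 100.5 and 220.4 CPM in 8P. Every P library was above every ND library, and relative to their mean the 8ND libraries spread most (coefficient of variation 75.9%, against 31.1% in 8P), from the level of 0ND to 54.1 CPM, still below the lowest P library. Lgr5 rose by 3.76 ± 0.60 (log2 ± SE, adjusted p = 0.000212) in 0P vs 0ND, a 13.5-fold difference, and by 2.46 ± 0.49 (adjusted p = 0.00157), or 5.50-fold, in 8P vs 8ND. With 8ND 1 and 8ND 2, the highest of their group, both left out the latter was necessarily larger, at 3.61 (adjusted p = 0.000110).

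Lgr4 went the other way. It was at 172, 265, 205 and 290.4 CPM in 0ND and at 187, 156, 107 and 125 CPM in 0P. With 8 mg/kg FA it was at 203, 152, 178, 148 and 175 CPM in 8ND and at 159.6, 127, 149.8, 193 and 122 CPM in 8P. The groups overlapped on both diets, with 0P 1 above the lowest 0ND library. Lgr4 fell by 0.69 on the log2 scale (SE 0.19, adjusted p = 0.00728) in 0P vs 0ND, and the difference in 8P vs 8ND was -0.19 ± 0.17 (adjusted p = 0.431). The 2 diets' differences for Lgr4 were themselves 0.51 ± 0.25 apart (adjusted p = 0.493).

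Ascl2 encodes a basic helix-loop-helix transcription factor that keeps the stem cell state of the crypt base. It was read thinly, with 5 to 29 counts per ND library and 43 to 108 per P library. It was at 1.40, 2.82, 1.42 and 2.60 CPM in 0ND and at 6.78, 8.31, 6.04 and 5.23 CPM in 0P, and the 8ND libraries held 3.04, 2.30, 1.61, 1.33 and 1.54 CPM beside 6.39, 5.33, 6.82, 6.47 and 3.99 CPM in 8P. No P library was as low as the highest ND library. Ascl2 rose 3.27-fold (log2 1.71 ± 0.30, adjusted p = 0.000213) in 0P vs 0ND and 2.90-fold (log2 1.54 ± 0.27, adjusted p = 0.000288) in 8P vs 8ND. Ascl2 had nearly the same mean in both ND groups, 2.06 ± 0.755 CPM in 0ND and 1.97 ± 0.703 CPM in 8ND (SD).

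Smoc2 encodes a secreted matricellular protein that is enriched in Lgr5 cells of the crypt and can restrain BMP signaling. It was at 8.60, 16.9, 19.5 and 12.99 CPM in 0ND and at 134, 107, 115 and 142 CPM in 0P. In 8ND it was at 47.4, 61.0, 15.3, 14.1 and 27.7 CPM and in 8P at 143, 251, 94.8, 122 and 261 CPM. The groups were apart on both diets, and the coefficient of variation was 61.9% in 8ND, 43.7% in 8P and 32.9% in 0ND, against 13.2% in 0P. Smoc2 rose 8.69-fold (log2 3.12 ± 0.46, adjusted p = 0.000100) in 0P vs 0ND and 5.19-fold (log2 2.37 ± 0.40, adjusted p = 0.000355) in 8P vs 8ND.

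Rgmb, a membrane-anchored BMP co-receptor, had the opposite direction. It was at 74.8, 91.9, 74.6 and 86.0 CPM in 0ND and at 48.2, 32.4, 33.3 and 36.6 CPM in 0P. The 8ND libraries held 79.2, 82.4, 71.2, 80.1 and 75.3 CPM and those of 8P 34.8, 52.7, 42.6, 27.5 and 56.4 CPM. All 9 P libraries were below all 9 ND libraries, which lay close together on both diets. Rgmb fell by 1.12 (SE 0.18, adjusted p = 0.000103) on the log2 scale in 0P vs 0ND, 2.17-fold, and by 0.86 (SE 0.16, adjusted p = 0.000528), 1.82-fold, in 8P vs 8ND.

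Lrig1 encodes a transmembrane inhibitor of ErbB receptors that marks a largely quiescent crypt population. It was at 76.1, 110.0, 83.6 and 108 CPM in 0ND and at 78.0, 41.9, 32.8 and 40.1 CPM in 0P. In 8ND it was at 95.8, 79.2, 102, 87.3 and 91.0 CPM and in 8P at 44.1, 75.2, 78.3, 44.8 and 68.2 CPM. The library 0P 1 reached the 0ND range, whereas the groups on 8 mg/kg FA did not overlap but came close. Lrig1 fell by 0.97 (SE 0.24, adjusted p = 0.00388) on the log2 scale in 0P vs 0ND. In 8P vs 8ND the difference was -0.55 ± 0.21 (adjusted p = 0.0563). With edgeR fitted to 8ND and 8P alone, all their libraries kept, it was -0.53 and passed the threshold (adjusted p = 0.0297). It also passed when 8P 2 or 8P 3 was left out (adjusted p = 0.0422 and 0.0378). As these were the highest 8P libraries for Lrig1, leaving either out widens the difference by construction. The 2 diets' differences for Lrig1 were themselves 0.41 ± 0.31 apart (adjusted p = 0.662).

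Tnfrsf19, also called Troy, encodes a receptor of the tumor necrosis factor family that is induced by Wnt signaling and dampens it in Lgr5 cells. It was at 3.00, 7.05, 3.55 and 1.19 CPM in 0ND and at 22.8, 44.9, 43.6 and 37.1 CPM in 0P. The levels in 8ND were 15.8, 13.6, 3.76, 5.61 and 11.3 CPM, and those in 8P were 49.6, 40.7, 45.6, 26.9 and 44.7 CPM. The P libraries were all higher, by 10.6-fold (log2 3.40 ± 0.46, adjusted p = 2.99e-05) without FA and by 4.08-fold (log2 2.03 ± 0.37, adjusted p = 0.000622) with 8 mg/kg FA.

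Msi1 encodes an RNA-binding protein that controls translation in stem and progenitor cells. It was at 2.87, 1.76, 1.89 and 1.73 CPM in 0ND and at 14.3, 22.3, 32.4 and 23.6 CPM in 0P. In 8ND it was at 11.2, 11.6, 1.72, 4.54 and 4.42 CPM and in 8P at 26.8, 32.0, 24.5, 24.3 and 27.8 CPM. The P libraries again lay above all ND libraries, with the highest ND levels in 8ND 1 and 8ND 2. Msi1 rose 10.8-fold (log2 3.43 ± 0.44, adjusted p = 1.59e-05) in 0P vs 0ND and 3.98-fold (log2 1.99 ± 0.35, adjusted p = 0.000431) in 8P vs 8ND.

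Cd44 encodes a receptor for hyaluronan and is also made by leukocytes and stromal cells. It was at 132, 67.4, 105 and 72.9 CPM in 0ND and at 247, 320.2, 228 and 266 CPM in 0P. In 8ND it was at 148, 209.6, 158, 166 and 141 CPM and in 8P at 279, 231, 366, 366 and 254 CPM. The ordering 0ND, 8ND and then P was without overlap, since the lowest 8ND library was above the highest of 0ND and the highest 8ND library below the lowest of P. Cd44 rose 2.80-fold (log2 1.49 ± 0.20, adjusted p = 2.29e-05) in 0P vs 0ND and 1.82-fold (log2 0.86 ± 0.18, adjusted p = 0.00134) in 8P vs 8ND.

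Hopx encodes a homeodomain protein that does not bind DNA itself and marks slowly cycling crypt cells. It was at 4.59, 7.41, 9.24 and 10.7 CPM in 0ND and at 15.8, 26.2, 25.7 and 17.7 CPM in 0P. On 8 mg/kg FA the levels were 12.6, 9.19, 7.19, 9.61 and 8.32 CPM in 8ND and 19.0, 22.6, 18.7, 19.7 and 18.3 CPM in 8P. All P libraries were above all ND libraries, and 8P was narrow. Hopx rose 2.69-fold (log2 1.43 ± 0.23, adjusted p = 0.000125) in 0P vs 0ND and 2.10-fold (log2 1.07 ± 0.21, adjusted p = 0.000736) in 8P vs 8ND.

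**Figure D2:**
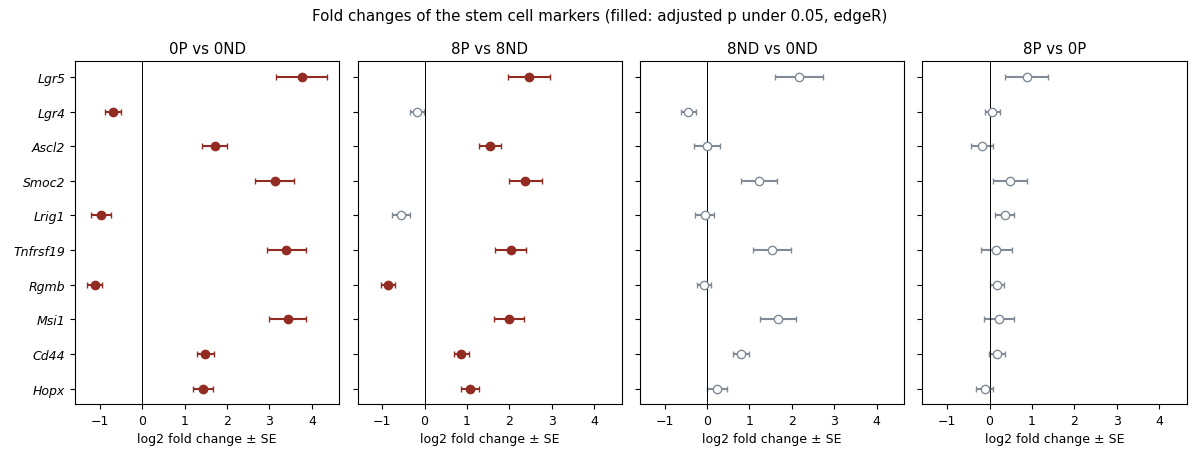
Log2 fold change with SE of the 10 markers, 1 panel per comparison (0P or 8P with its ND group, then 8ND with 0ND and 8P with 0P), with filled points for an adjusted p under 0.05 in edgeR. All 10 points are filled for 0P vs 0ND, 8 for 8P vs 8ND and 0 in the comparisons of diet.

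The comparison of 8ND with 0ND asks whether FA altered these genes in epithelium without dysplasia. Lgr5 was at a mean of 29.6 ± 22.5 CPM in 8ND and 6.58 ± 2.95 CPM in 0ND (SD), a log2 difference of 2.17 ± 0.57 (adjusted p = 0.148). The differences were 1.67 ± 0.43 (adjusted p = 0.130) for Msi1, 1.53 ± 0.44 (adjusted p = 0.179) for Tnfrsf19 and 1.23 ± 0.43 (adjusted p = 0.315) for Smoc2. For Cd44 the difference was 0.80 ± 0.19 (adjusted p = 0.114), and it was the one marker whose groups did not overlap, as for 3.94% of all genes. Lgr4 differed by -0.44 ± 0.18 (adjusted p = 0.383). Hopx differed by 0.24 ± 0.23, Ascl2 by -0.01 ± 0.31, Lrig1 by -0.05 ± 0.22 and Rgmb by -0.07 ± 0.17 (adjusted p from 0.819 to 0.997). Intervals of 2 SE ran from -0.62 to 0.60 for Ascl2 and from -0.41 to 0.26 for Rgmb, so differences within these intervals were not excluded.

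In edgeR 0 of the 10 passed in 8ND vs 0ND, where 0.0481% of all genes did, 0.0289% higher and 0.0192% lower. Of the 10, 6 had an unadjusted p under 0.05, as did 2059 genes in all, or 9.91%. In DESeq2, one of the tools named in the study's methods, 4 of the 10 passed the same adjusted p, namely Lgr5 (adjusted p = 0.00924), Msi1 (0.00705), Cd44 (0.0152) and Tnfrsf19 (0.0253), where 1.54% of the 20364 genes with an adjusted p did (313 genes). The fold-change limit that the study set beside it was not applied, and Cd44 differed there by 0.79 on the log2 scale, less than a doubling. The call therefore depended on the tool for these 4 markers.

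Single libraries set much of the spread in 8ND. Lgr5, Smoc2, Tnfrsf19 and Msi1 each had their top pair of 8ND values in 8ND 1 and 8ND 2, and on the first principal component of all genes (49.0% of the variance) no other ND library came as close to P. Lgr5 in 8ND 3 was at 4.40 CPM, the lowest of all 18 libraries, and Msi1 was at its lowest there too. Without 8ND 3, Lgr5 (adjusted p = 0.0128), Msi1 (0.00949) and Tnfrsf19 (0.0475) passed in edgeR, as did 0.754% of all genes. As 8ND 3 was singled out for its low values, leaving it out raises these differences by construction. In the same way, 8ND 1 and 8ND 2 were singled out for their high values, and leaving both out lowers the differences by construction. The log2 differences were then 1.02 for Lgr5, 0.69 for Msi1, 1.00 for Tnfrsf19, 0.43 for Smoc2 and 0.71 for Cd44 (adjusted p from 0.541 to 0.888). Relative to the log2 means of 0ND and 0P, Lgr5 stood 80.3% and 81.3% of the way towards 0P in 8ND 1 and 8ND 2, 38.5% and 40.6% in 8ND 4 and 8ND 5, and -11.6% in 8ND 3. Msi1 stood at 68.3%, 69.8%, 29.6%, 28.5% and -5.38% in the same order. Ascl2 stood at 32.7% and 10.7% in 8ND 1 and 8ND 2 and below the 0ND mean in the other 3, and Rgmb stayed between -1.35% and 17.3%. Cd44 lay between 40.9% and 78.5% in all 5 libraries, with 8ND 2 highest.

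Marker sums of other cell types were set beside this. The 8 goblet cell markers summed to 10742 to 20053 CPM in 8ND, above the 8823 to 9377 CPM of 0ND in every library. The 11 absorptive colonocyte markers had a median sum of 1870 CPM in 8ND and 3444 CPM in 0ND, with overlap, and the 7 B and plasma cell markers one of 5207 CPM and 3350 CPM. The median log2 difference in 8ND vs 0ND was 0.53 over the goblet cell, -0.33 over the absorptive colonocyte and 0.65 over the B and plasma cell markers tested. In edgeR 0 of the 8 goblet cell markers passed. Neither did any of the 10 tested absorptive colonocyte markers or the 7 B and plasma cell markers. Each list held estimates in both directions. Muc2, with the highest mean of the goblet cell markers, differed by 1.15 ± 0.44 (adjusted p = 0.374). Zg16 differed by -0.07 ± 0.47. Igkc, Igha and Jchain, with the highest means of the B and plasma cell markers, had adjusted p from 0.537 to 0.735. Within 8ND, the goblet cell sum was 19447 CPM in 8ND 1 and 10742 CPM in 8ND 2, close to the highest and at the lowest of the group. The 9 fibroblast markers summed to 1815 and 1657 CPM in them against 1541 to 2044 CPM in 8ND, and the 19 proliferation genes to 793 and 796 CPM, the lowest of 8ND. The absorptive colonocyte markers summed to 1794 and 1870 CPM there and to 2783 CPM in 8ND 3, the highest of the group, where Lgr5 was lowest. The part of these sums in the result was not tested.

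**Figure D3:**
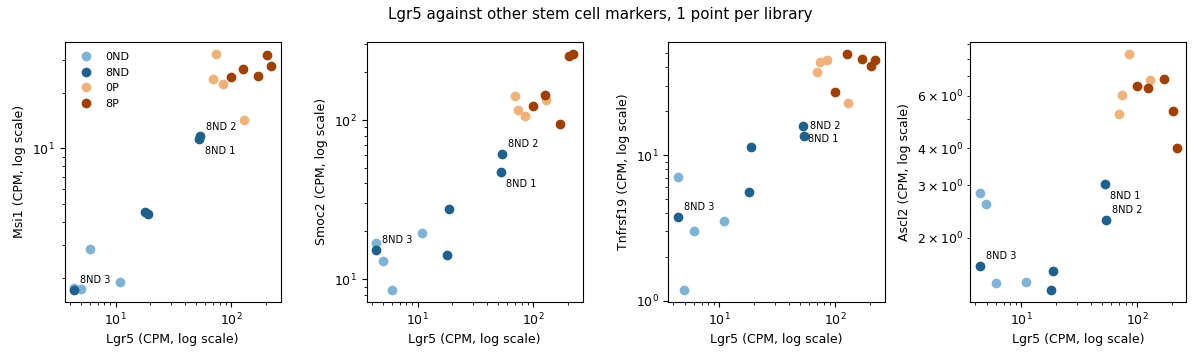
Msi1, Smoc2, Tnfrsf19 and Ascl2 against Lgr5, each in CPM on log axes, with 1 point per library colored by group and 8ND 1, 8ND 2 and 8ND 3 named. For Msi1, Smoc2 and Tnfrsf19 the points of 8ND 1 and 8ND 2 lie between the other ND libraries and the P libraries, while for Ascl2 the ND libraries stay at or under 3.04 CPM whatever their Lgr5 level.

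Within polypoid dysplasia, the comparison of 8P with 0P asks whether FA altered the markers once dysplasia had formed. Lgr5 averaged 164 ± 51.1 CPM in 8P and 89.6 ± 27.3 CPM in 0P (SD), a log2 difference of 0.87 ± 0.50 (adjusted p = 0.539), with 3 of the 5 8P libraries above all of 0P. The interval of 2 SE ran from -0.12 to 1.87, so neither no difference nor a doubling was outside it. Smoc2 differed by 0.48 ± 0.40 (adjusted p = 0.663) and Lrig1 by 0.36 ± 0.22 (adjusted p = 0.564). The other 7 markers lay between -0.18 for Ascl2 and 0.23 for Msi1. In 8P vs 0P 0 of the 10 passed in edgeR, 0 had an unadjusted p under 0.05 and 0 passed in DESeq2 (0.0611% of all genes), and all 10 overlapped between the groups, where 2.25% of all genes did not. Over all genes 0% passed in edgeR, 2093 (10.1%) had an unadjusted p under 0.05 and 13 passed in DESeq2.

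Whether the difference between P and ND depended on the diet was tested as an interaction. It was -1.44 ± 0.55 for Msi1 (adjusted p = 0.392), -1.37 ± 0.57 for Tnfrsf19 (adjusted p = 0.437), -1.30 ± 0.74 for Lgr5 (adjusted p = 0.556) and -0.62 ± 0.27 for Cd44 (adjusted p = 0.442). A negative value means a smaller rise with dysplasia on 8 mg/kg FA. In edgeR 0 of the 10 passed, as did 0% of all genes. Of the 10, 3 had an unadjusted p under 0.05, as did 2163 genes in all, or 10.4%. DESeq2 called 0 of the 10 and 0.511% of all genes (81). With 8ND 1 and 8ND 2 both left out, which shifts 8ND by their choice, the interaction was -0.14 for Lgr5, -0.46 for Msi1, -0.84 for Tnfrsf19 and -0.53 for Cd44.

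**Figure D4:**
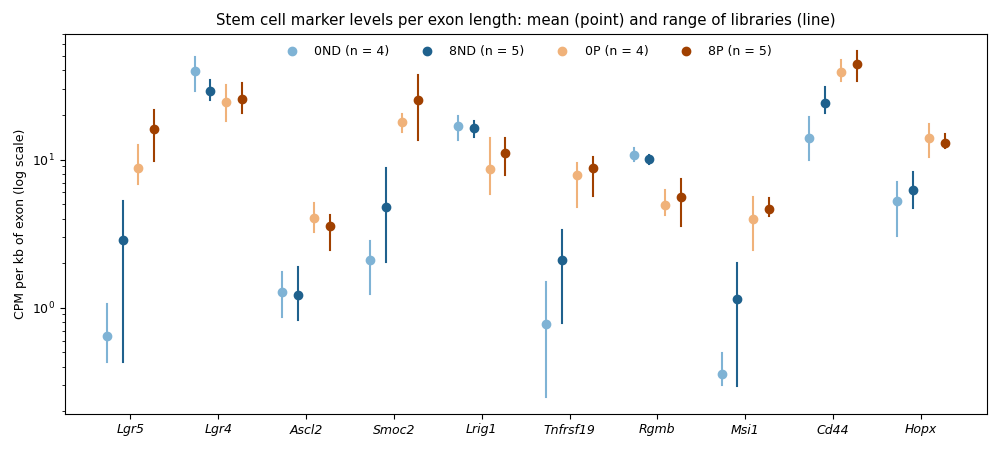
Level of each marker in CPM per kb of exon on a log axis, colored by group, with the group mean as a point and the range of its libraries as a line. Lgr4 leads in both ND groups and Cd44 in both P groups, and Lgr5, Smoc2, Tnfrsf19 and Msi1 have wider ranges in 8ND than in P on this scale.

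Levels of different genes were compared per kb of exon. In 0ND the order was Lgr4 (39.6 ± 9.25 CPM per kb, SD), Lrig1 (16.9 ± 3.07), Cd44 (13.9 ± 4.46), Rgmb (10.7 ± 1.12), Hopx (5.27 ± 1.74), Smoc2 (2.09 ± 0.687), Ascl2 (1.27 ± 0.465), Tnfrsf19 (0.781 ± 0.518), Lgr5 (0.641 ± 0.288) and Msi1 (0.356 ± 0.0931). Neighbors from Lrig1 to Rgmb and from Smoc2 to Msi1 overlapped in their ranges. In 0P Cd44 came first with 39.2 ± 5.84 CPM per kb, before Lgr4 with 24.5 ± 5.94 and Smoc2 with 17.9 ± 2.37. Lgr5 had rank 9 of 10 in 0ND with 0.641 CPM per kb, rank 5 in 0P with 8.73 ± 2.66 and rank 4 in 8P with 16.0 ± 4.98 CPM per kb. Every neighboring pair from Lgr4 down overlapped in 0P and in 8P, so the middle of these orders was not resolved.

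How the markers varied together within groups was described by the correlation of their log2(CPM + 1) values after the group means were taken off. Over the 18 libraries the 45 pairs ran from -0.50 to 0.76, with a median of 0.15, and the libraries share their depth and scaling within a pair. Lgr5 went most closely with Msi1 (r = 0.74) and Smoc2 (0.72), then with Tnfrsf19 (0.53), and hardly with Ascl2 (0.17), Cd44 (0.12) or Lgr4 (-0.12). For Lgr5 and Msi1 it was 0.93 over the 9 ND libraries and -0.29 over the 9 P libraries. Over the P libraries Lgr5 went with Rgmb (0.95) and Lrig1 (0.88), with values of 0.25 and -0.48 over the ND libraries. These are descriptions of few libraries, without a test.

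Among 11673 genes with a mean of at least 5 CPM, the named genes whose pattern was most like that of Lgr5 were Arhgef26 (r = 0.88), Mmp7 (0.86), Limch1 (0.86), Esyt3 (0.84) and Nxpe5 (0.82) over the 18 libraries. Msi1 had rank 22 and Smoc2 rank 35 by this measure. Mmp7, which encodes a matrix metalloproteinase, had a mean of 1.20 CPM in 0ND and 15.1 CPM in 8ND, beside 85.1 CPM for 0P and 84.3 CPM for 8P. Nxpe5 went from 114 CPM in 0ND and 50.3 CPM in 8ND to 16.9 CPM in 0P and 9.93 CPM in 8P, so its group means ran opposite to those of Lgr5.

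Other genes of the same pathways were followed as lists, whose counts stand beside the 31.6% of all genes called in 0P vs 0ND and the 28.2% called in 8P vs 8ND. Of the 5 R-spondin axis genes tested, 3 were higher and 1 lower in polypoid dysplasia on either diet. The higher ones were Lgr6, the third receptor of the family, with a log2 difference of 5.00 ± 0.77 without FA and 3.12 ± 0.59 with it, and Rnf43 and Znrf3, the ubiquitin ligases that remove Wnt receptors. Rnf43 rose by 2.59 ± 0.22 and 2.01 ± 0.19 and Znrf3 by 1.96 ± 0.20 and 1.37 ± 0.18. The lower one was Rspo3, a stromal R-spondin, by -2.41 ± 0.46 and -1.95 ± 0.41 (adjusted p at most 0.00161 for all 4 genes). All 3 Lgr receptors were thus measured, and Lgr4 differed in direction from Lgr5 and Lgr6 in 0P vs 0ND.

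Of 17 other crypt-base genes tested, 11 were higher and 1 lower in 0P vs 0ND, and 9 were higher and 1 lower in 8P vs 8ND, with medians of 0.96 and 0.51. Axin2, a Wnt feedback gene, rose by 3.06 ± 0.24 and 1.97 ± 0.21, and Mex3a, an RNA-binding protein of slowly cycling Lgr5 cells, by 4.09 ± 0.43 and 2.39 ± 0.35 (adjusted p at most 0.000119). Sp5 rose by 8.16 ± 0.91, from a 0ND mean of 0.0319 CPM that is close to the floor, and by 2.40 ± 0.49. In the other direction, Aqp4 went from a mean of 468 CPM in 0ND to 58.5 CPM in 0P and from 581 CPM in 8ND to 65.8 CPM in 8P. In 8ND vs 0ND the same list had a median of 0.45, the R-spondin axis one of 0.64 and all genes one of 0.00. The differences there were 0.84 ± 0.22 (adjusted p = 0.131) for Axin2, 1.63 ± 0.40 (adjusted p = 0.128) for Mex3a and 5.43 ± 1.02 (adjusted p = 0.0593) for Sp5. Of 7 genes linked to reserve stem cells or injury, 3 were higher in each comparison of P with ND, and 1 was lower in 8P vs 8ND. Tert, the telomerase subunit, rose by 1.33 ± 0.19 and 1.10 ± 0.17.

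Among partners of single markers, genes were called in both directions. Of the 3 ErbB receptors tested, which Lrig1 restrains, Erbb2 and Erbb3 fell in both comparisons, Erbb3 by 1.28 (SE 0.22) and by 0.71 (SE 0.20) on the log2 scale, and Egfr was at 0.01 ± 0.13 and -0.03 ± 0.12. Of 18 BMP pathway genes, 5 were higher and 4 lower in 0P vs 0ND and 4 were higher and 5 lower in 8P vs 8ND, 50% of the list each time and evenly split, with medians of -0.08 and 0.15. They include Bmp7, a ligand, up by 2.63 ± 0.34 and 1.48 ± 0.29 and Chrdl1, an antagonist, down to -2.93 ± 0.49 and -2.54 ± 0.44. Of 9 genes for hyaluronan synthesis and Cd44 partners, 2 were higher and 1 lower in 0P vs 0ND and 1 was higher and 1 lower in 8P vs 8ND, shares of 33.3% and 22.2% that are near those of all genes. Esrp1, a splicing factor that acts on Cd44, had -0.47 ± 0.11 and -0.48 ± 0.10 (adjusted p = 0.00359 and 0.00146).

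Markers of other cell types differed between ND and P as well, which in bulk RNA does not show a difference in cell numbers. Their counts stand beside the 31.6% of all genes called in 0P vs 0ND and the 28.2% called in 8P vs 8ND. Of the 11 epithelial markers, among them Epcam and Cdh1, 2 were higher and 4 lower in 0P vs 0ND and 2 were higher and 7 lower in 8P vs 8ND. Their median sums were 5383 CPM in 0ND and 4368 CPM for 0P, and 4888 CPM in 8ND and 3142 CPM for 8P. Lgals4, an epithelial galectin, fell by 0.90 (SE 0.22) and by 1.12 (SE 0.20) on the log2 scale. The 2 higher ones were Cldn4, by 3.67 ± 0.33 and 1.88 ± 0.27, and Krt18, by 1.06 ± 0.19 and 0.60 ± 0.17. Of the 8 goblet cell markers all were lower in both comparisons, with sums of 1481 to 3710 CPM for 0P and 827 to 3616 CPM for 8P. Of the absorptive colonocyte markers 9 of 10 tested were lower in both, with sums of 1746 to 3966 CPM in ND and 288 to 959 CPM in P, and all 6 enteroendocrine and all 6 smooth muscle markers tested were lower. Of 9 fibroblast markers 7 were higher and 1 lower in 0P vs 0ND and 2 were higher in 8P vs 8ND. These are 88.9% and 22.2% of the list, the latter below the share of all genes. The fibroblast sums were 1255 to 1618 CPM in 0ND and 1541 to 2044 CPM in 8ND, beside 2249 to 3110 CPM for 0P and 1387 to 3361 CPM for 8P. Of 19 proliferation genes 12 were higher in 0P vs 0ND and 7 in 8P vs 8ND, 63.2% and 36.8% of the list.

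Among leukocyte markers some genes were lower and others higher in P, and their counts stand beside the same 31.6% and 28.2% of all genes. Of 7 B and plasma cell markers 3 were lower in 0P vs 0ND and 5 in 8P vs 8ND, with sums of 2391 to 10552 CPM in ND and 484 to 3152 CPM in P. The immunoglobulin gene Igha fell by 1.55 (SE 0.48) and by 1.95 (SE 0.43) on the log2 scale. Of 6 neutrophil markers tested 4 were higher and 1 lower in both comparisons. S100a9, a calcium-binding protein of neutrophils, was up by 5.01 ± 0.92 and 2.65 ± 0.62, and Csf3r, a cytokine receptor, by 1.61 ± 0.40 and 1.31 ± 0.35. The S100a9 means were only 0.106 CPM in 0ND and 0.745 CPM in 8ND, so the size of its rise is uncertain. Neutrophil sums were low in all groups, 16.3 to 32.0 CPM in ND and 24.1 to 80.5 CPM in P. Of 8 macrophage markers 3 were higher in 0P vs 0ND, 37.5% and near the share of all genes, and 0 were called in 8P vs 8ND. The medians over the macrophage list were 0.51 in 0P vs 0ND and 0.32 in 8P vs 8ND. Elane of the neutrophil list was at 0 counts in every library. The part of these cell types in the levels of the stem cell markers was not tested.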

How the data were processed

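RNA-Seq of 18 laser-microdissected samples gave 1 count table per library. Per the study's methods and the submitters' processing notes, the authors aligned reads to mm10 with Bowtie and deposited raw read counts per gene from HTSeq. No source used here gives their versions or the strand setting. The tables held 5 summary lines, which entered no library size or test. Reads off genes made up 22.0 to 40.7% of a library, those with several alignments 40.1 to 62.2% and ambiguous ones 0.220 to 0.384%. Molecular identifiers are not mentioned, so counts may include PCR copies.

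The test was edgeR 4.0.16 (R 4.3.3) with its robust quasi-likelihood fit, 1 mean per group and TMM scaling over the 18 libraries, after filterByExpr with a minimum count of 10. Benjamini-Hochberg adjustment ran over the 20787 genes tested, with a threshold of 0.05. The SE was derived from the F statistic and the log2 fold change. Likeness to Lgr5 used log2(CPM + 1), leaving out unnamed gene models, and the 5 genes of highest correlation were named. Of each other list up to 3 genes with the smallest p were named, with more where a count of 5 or fewer needed them. DESeq2 1.42.0, other scalings, filters and left-out libraries were alternatives. The fit was tested on simulated data. The markers, lists and tests were chosen with earlier results of these data known. No pair of libraries in a group looked like a repeat deposit, since the chi-square per gene was 10.4 or more.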

Additional observations from a re-analysis of the deposited data

Results flagged for a closer look

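Msi1 in 0ND 1 was at 2.87 CPM while the other 3 libraries of 0ND lay between 1.73 and 1.89 CPM, and its gap to the nearest took 0.857 of the group's range, past Dixon's limit for 4 samples. It rested on 45 counts. Of 40 sets of values checked (10 markers in 4 groups) this was the 1 that passed the limit, and chance passes about 1 in 20.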

How the results depend on the processing

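The 18 marker differences that passed the threshold in 0P vs 0ND and 8P vs 8ND kept their direction and stayed past it in all 312 alternative values. These came from DESeq2, other scalings, no filter, fits of the compared groups alone, left-out libraries and the replicate blocks. The number of markers past the threshold stayed at 10 in 0P vs 0ND. In 8P vs 8ND it was 8 to 9 with single libraries left out, and the fit of these groups alone added Lrig1. In 8ND vs 0ND the number was 0 to 3 with single libraries left out and 4 in DESeq2. In 8P vs 0P and in the interaction it was 0 throughout.

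Of the 628 values for the 32 differences not past the threshold, 10 passed it and 17 changed sign, all of the latter close to 0. In 8ND vs 0ND, Ascl2 was 0.010 in DESeq2, 0.031 by total counts and -0.20 to 0.15 with single libraries left out, and Lrig1 was -0.14 to 0.026. In 8P vs 0P, with single libraries left out, Tnfrsf19 ran from -0.012 to 0.28, Hopx from -0.23 to 0.0016 and Lgr4 from -0.068 to 0.21. In the interaction, Ascl2 ran from -0.33 to 0.024, and without 8ND 1 and 8ND 2 together Ascl2 was 0.22 and Smoc2 0.052.

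Over all genes, 8ND vs 0ND gave 10 genes past the threshold, 2 (without 0ND 4, 8ND 1 or 8ND 2) to 157 (without 8ND 3) with single libraries left out, 313 in DESeq2, 41 with no filter and 0 without 8ND 1 and 8ND 2. In 8P vs 0P the count of 0 became 13 in DESeq2, 2 with RLE size factors, 1 by total counts, 2 with no filter and at most 5 (without 0P 1). The interaction count of 0 became 81 in DESeq2, 1 with no filter and at most 26 (without 8ND 3). The comparisons 0P vs 0ND and 8P vs 8ND ranged from 5302 to 6606 and from 4970 to 6415 genes with single libraries left out. The cause of these shifts was not tested.

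The ND and P libraries that share a number are not stated to come from the same mouse. Deviations of same-numbered libraries correlated between -0.11 and 0.28, and 4 of the 9 numbers correlated best with their own number. One replicate block tied equal numbers together across both diets, so it was not a pairing by mouse. It gave 28 genes in 8ND vs 0ND, 3 in 8P vs 0P and 8 markers in 8P vs 8ND. Ascl2 had 0.087 in 8ND vs 0ND with it, and no marker's call changed. Another block tied equal numbers within each diet, which fits 0P vs 0ND, 8P vs 8ND and the interaction. No marker's call changed with it either. With 4 or 5 libraries a group and Ascl2 at 5 counts in the shallowest library, small differences of that gene cannot be resolved.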
